A study of Mus musculus with 10 samples.

Results

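Loss of RhoA was examined in epidermal cells taken straight from mouse skin, without culture. The rule took the 4 freshly isolated arrays of the 10 in the series, namely 2 labelled RhoA-KO and 2 labelled wildtype, and kept each probe set whose signal was above the median of its array on at least 2 of them. That left 22893 probe sets, of which those with a single gene symbol stood for 11376 genes. Per the labels, the KO cells were RhoA fl/fl K5 cre and the controls, although titled wildtype, were RhoA fl/+ K5 cre, so both groups carried the Cre and at least 1 floxed allele. The tissue is given as skin. No label used here states strain, age, sex or how many animals went into an array. The arrays are titled biological replicates and no animal is named, so every p-value here measures the spread between these samples. The other 6 arrays of the series hold cultured keratinocytes of the same genotypes.

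RhoA is a small GTPase that cycles between a GTP-bound and a GDP-bound form. Exchange factors load it with GTP, GTPase-activating proteins switch it off, and in its active form it binds ROCK kinases and formins, which assemble contractile actomyosin at cell junctions, at adhesions and in the cleavage furrow. Polymerised actin in turn frees MRTF coactivators of the transcription factor SRF and favours the nuclear entry of YAP. The epidermis is a layered epithelium: proliferating basal keratinocytes marked by keratins 5 and 14 move upward, switch to keratins 1 and 10, and end as the dead cornified layer. The keratin 5 promoter that drives the Cre is active in basal keratinocytes and their progeny, which include cells of the hair follicle. Langerhans cells, T cells and melanocytes, which also live in the epidermis, do not come from keratin 5-expressing cells, so their RhoA is not a target of this deletion.

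Signals are deposited linear intensities, and changes are differences of log2 signal, KO minus control, each with its standard error (SE) from limma, a linear model across all probe sets. A gene is represented by its probe set with the highest mean. No probe set passed an adjusted p of 0.05 (limma, Benjamini-Hochberg over 22893 probe sets), which is 0% of those tested. The smallest adjusted p was 0.153, and the unadjusted p was under 0.05 for 2953 probe sets (12.9%). Adjusted p-values printed for single genes are from this fit, except those given for culture or for a difference between fresh and cultured changes. Values of genes are therefore given as descriptions, and 2 further measures are counted. The first is whether both KO arrays lay on the same side of both controls, called apart below: 3084 of 11376 genes (27.1%) were apart and higher in KO, and 2871 (25.2%) apart and lower. The other is an unadjusted p under 0.05: 839 genes (7.38%) higher and 899 (7.9%) lower. The median change over all genes was 0.01.

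KO replicate 2 stood apart from the other 3 arrays before any comparison. In it, 73 genes exceeded each of the other arrays by more than 2-fold and 39 lay below them by more than 2-fold, against 1 to 7 and 1 to 10 genes on the other arrays. The genes in excess were led by hair keratins. Krt35, a hair shaft keratin, read 84.4 and 42.1 on the controls, 36.1 on KO replicate 1 and 5636 on KO replicate 2. All 17 tested hair shaft genes lay below both controls on KO replicate 1, whereas 16 of the 17 lay above both on KO replicate 2. The summed signal of the list was 2718 and 2120 on the controls, 1171 on KO replicate 1 and 47005 on KO replicate 2. The inner root sheath list of 10 genes went the same way, with sums of 6892, 5796, 5335 and 43377 in that order. The 2 KO arrays thus lay on opposite sides of the controls in hair transcripts. Counts on KO replicate 1 alone are given beside the main groups for this reason: over all genes, KO replicate 1 lay above both controls for 40.1% and below both for 37%. KO replicate 2 did so for 41.5% and 39.5%.

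The cells read as keratinocytes on all 4 arrays. Krt5 read 22392 and 21546 on the control arrays and 22041 and 23502 on the KO arrays, and Krt10 read 29043 and 29412 on the control arrays and 29537 and 30458 on the KO arrays. Pecam1 and Cdh5, of endothelium, and Col1a1, Lum and Pdgfra, of fibroblasts, did not pass the filter. Other fibroblast genes did: of 15 tested, 8 were apart and higher (27.1% over all genes) and 1 lower (25.2%). Col3a1 among them passed only through its KO arrays, since both controls lay below the array median. Sums of the list were 14423 and 11598 on the controls, 15621 on KO replicate 1 and 13185 on KO replicate 2. Dcn (decorin), a dermal proteoglycan, read 102 and 62.6 on the control arrays and 137 and 1012 on the KO arrays. Langerhans cell genes were present and lower in KO. Their defining marker Cd207 (langerin) read 1416 and 965 on the control arrays and 1019 and 466 on the KO arrays, so control replicate 2 and KO replicate 1 were close to each other. Of 20 tested Langerhans genes, 13 were apart and lower and none apart and higher, and the summed signal was 30779 and 24541 on the controls, 20646 on KO replicate 1 and 10326 on KO replicate 2. Control replicate 2 was below control replicate 1 for all 20 of them. Of the 8 melanocyte genes that passed the filter, 6 were apart and higher (27.1% over all genes) and 1 lower (25.2%). Sums of the list were 3374 and 3469 on the controls, 3921 on KO replicate 1 and 7794 on KO replicate 2. The lower gene was Mitf, the member with the smallest p, at 669 and 699 on the control arrays and 550 and 474 on the KO arrays. For 2 of the 8, Tyrp1 and Mlana, both controls lay below the array median, so the filter itself kept them for their high KO values. Dct, an enzyme of melanin synthesis, read 285 and 205 on the control arrays and 468 and 1846 on the KO arrays. Of 17 T cell genes, 6 were apart and higher and 1 lower, and Cd3e overlapped between the groups at 400.4 and 334 on controls and 368 and 385 on KO arrays. In such bulk samples, fewer cells of a type and less RNA per cell cannot be told apart.

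**Figure D1:**
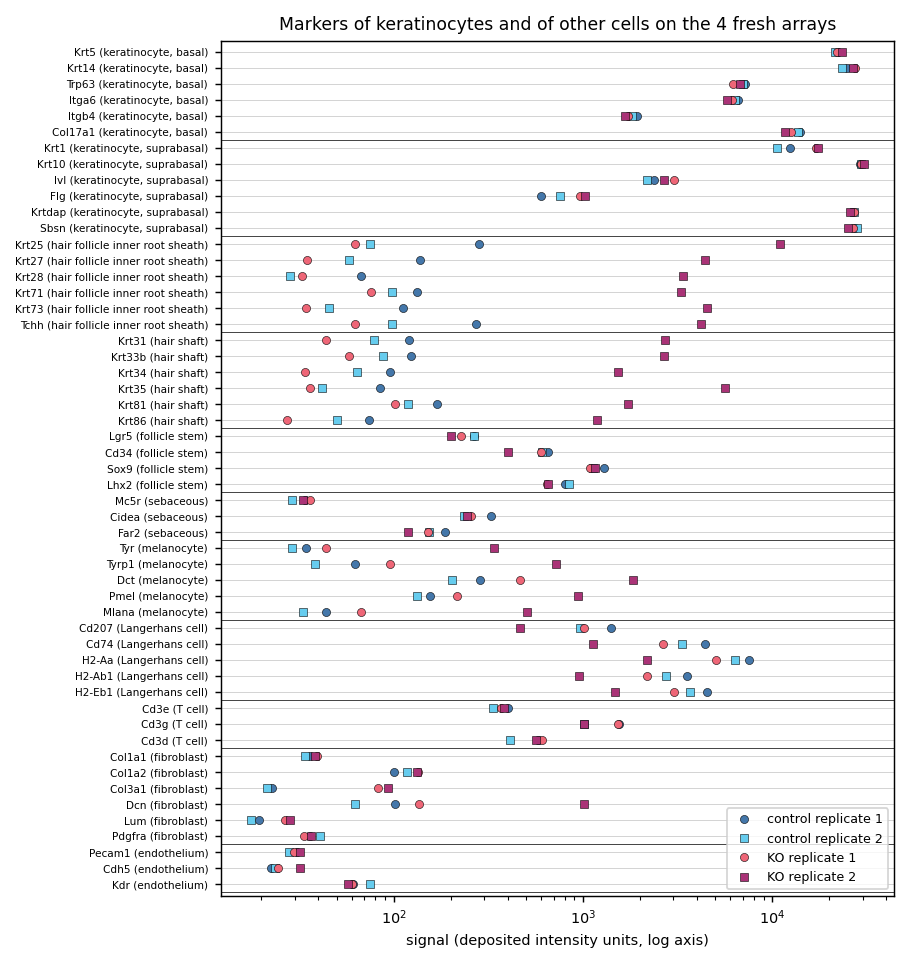
Signal of marker genes (horizontal log axis, deposited intensity units) on the 2 control and 2 KO arrays, 1 point per array, with the cell type in brackets. The basal keratins Krt5 and Krt14 and the suprabasal keratin Krt10 sit at the right edge on all arrays, KO replicate 2 stands far to the right in the hair shaft and inner root sheath rows, and the Langerhans rows have KO replicate 2 lowest.

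Rhoa itself was not lower on the KO arrays. The probe set with the higher signal read 3526 and 4059 on controls and 4398 and 4296 on KO arrays (log2 0.20, SE 0.092, adjusted p = 0.434). Another probe set read 1443 and 1811 against 1945 and 1875 (log2 0.24, SE 0.13, adjusted p = 0.494), and the third did not pass the filter. Whether these probes fall inside the floxed stretch could not be determined, and they give no check of the genotype. In culture the same probe sets read lower in KO (log2 -0.35, SE 0.083, and -0.31, SE 0.11), with limma adjusted p-values of 0.156 and 0.272. The difference between the fresh and cultured changes did not pass either (0.56, SE 0.12, adjusted p = 0.067, and 0.55, SE 0.17, adjusted p = 0.143).

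Effectors and regulators of RhoA differed little between the groups. Among 31 effectors and actomyosin genes, 6 were apart and higher (27.1% over all genes) and 9 lower (25.2%). Anln, which encodes the furrow scaffold anillin, read 1108 and 962 in controls and 1478 and 1340.1 in KO, and Myh14, a non-muscle myosin heavy chain, read 1618 and 1802 in controls and 1387 and 1431 in KO. The direction of Ppp1r12a, the targeting subunit of myosin phosphatase, was opposite on another of its probe sets, so no direction is given for it. Among 38 exchange factors, GAPs and GDIs, 7 were apart and higher and 13 lower. Racgap1 and Ect2, the GAP and the exchange factor that place active RhoA at the cleavage furrow, were both on the higher side: Racgap1 read 269 and 222 in controls and 341 and 390.4 in KO, and Ect2 327 and 315 in controls and 397 and 449 in KO. Dlc1, a RhoA GAP of focal adhesions, was on the lower side at 319 and 350.2 against 243 and 249. None of these genes passed the adjusted threshold.

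The 15 genes with the smallest p on the higher side included 5 of the suprabasal and envelope list, namely Tgm3, Klk6, Klk8, Serpinb12 and Krt1. Stfa3, a stefin that inhibits cysteine cathepsins, read 551 and 325 on the control arrays and 5336 and 4548 on the KO arrays. Both KO arrays exceeded the higher control by more than 2-fold, and the mean change was 11.6-fold (log2 3.54, SE 0.26, adjusted p = 0.153, n = 2 per group). Serpinb12, a serpin of suprabasal cells, read 185 and 99.95 on the control arrays and 932 and 633 on the KO arrays (log2 2.50, SE 0.34). Its controls differed from each other by more than its KO arrays did, and both KO arrays were far above both of them. Tgm3, the transglutaminase that crosslinks envelope proteins in upper epidermis and inner root sheath, read 173 and 153 on the control arrays and 516 and 489 on the KO arrays (log2 1.63, SE 0.13, adjusted p = 0.153). The part of inner root sheath cells in the Tgm3 values was not tested.

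The set held 2 kallikreins, serine proteases that act in desquamation. Klk8 read 1366 and 1409 on the control arrays and 2463 and 2767 on the KO arrays (log2 0.91, SE 0.10, adjusted p = 0.153). Klk6 read 94.3 and 101 in controls and 245 and 257 in KO (log2 1.36, SE 0.13). Both genes were picked by their small p among genes apart, so close replicates and separated groups follow from that choice. Endou, an endoribonuclease, read 419 and 311 in controls and 1073 and 1103 in KO (log2 1.59, SE 0.17). Krt1, the suprabasal keratin, read 12360.4 and 10562 on the control arrays and 16933 and 17555 on the KO arrays (log2 0.59, SE 0.086, adjusted p = 0.242), a change much smaller than those above although its signal was far from background. Detoxifying enzymes were in the set as well: Aldh3a1, an aldehyde dehydrogenase, read 1923 and 2092 in controls and 3164 and 3307 in KO, and Gpx2, a glutathione peroxidase, had a log2 change of 0.98 (SE 0.14). Fhl2, a LIM protein that binds SRF and other regulators, read 76.3 and 75.97 in controls and 170.3 and 205 in KO. Col3a1, a dermal fibrillar collagen, read 22.9 and 21.4 on the controls, below their array medians, and 82.5 and 93.9 on the KO arrays, so its change of 3.97-fold rests on control values at background, and the part of fibroblasts in it was not tested. The other 4 of the 15 were Tpm2, Chil1, Slc37a2 and Sprr1b, with Tpm2 of opposite sign on another of its probe sets. Chil1 passed the filter only through its KO arrays, since both controls lay below the array median.

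On the lower side, 2 of the 15 genes with the smallest p, Timp3 and Fn1, belong to the TGF-beta and matrix list. Gpha2, a glycoprotein hormone subunit, read 865 and 876 on the control arrays and 289 and 221 on the KO arrays (log2 -1.79, SE 0.16, adjusted p = 0.153). Timp3, a metalloproteinase inhibitor bound to matrix, read 2075 and 2257 on the control arrays and 998 and 861 on the KO arrays (log2 -1.22, SE 0.11, adjusted p = 0.153), and all 4 of its tested probe sets had the same sign. Fn1, which encodes fibronectin, read 611 and 658 on the control arrays and 275 and 266 on the KO arrays (log2 -1.23, SE 0.12, adjusted p = 0.153). For these 3 genes the replicates of a group differed far less than the groups did, which the choice by smallest p favours. Rspo3, a secreted amplifier of Wnt signalling, read 402 and 450.5 on the control arrays and 178 and 166 on the KO arrays (log2 -1.31, SE 0.13, adjusted p = 0.153). Ereg, which encodes the EGF receptor ligand epiregulin, read 1087 and 1458 in controls and 521 and 493 in KO (log2 -1.31, SE 0.16), and Ptger4, a prostaglandin E2 receptor, read 4429.9 and 4718 in controls and 2764 and 2431 in KO (log2 -0.82, SE 0.094). Abca5, a lipid transporter, read 2009 and 2279.7 in controls and 817 and 604 in KO (log2 -1.61, SE 0.17). Scd3, a stearoyl-CoA desaturase of sebaceous gland and skin, read 289 and 231 in controls and 75.6 and 58.5 in KO (log2 -1.96, SE 0.20, adjusted p = 0.153). Mpeg1, a macrophage and Langerhans cell gene, and Klra17, a receptor of myeloid cells, were also among the 15, with Mpeg1 at 95.8 and 103 in controls and 43.3 and 36.3 in KO. Those values lie beside the lower Langerhans gene sums given above, and the part of the cell makeup in them was not tested. The rest of the 15 were Ccn1, Ndufa4l2, Trpm3, Slc23a1 and Dnajc6. Mpeg1, Klra17, Trpm3 and Slc23a1 passed the filter only through their controls, since both KO arrays lay below the array median.

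**Figure D2:**
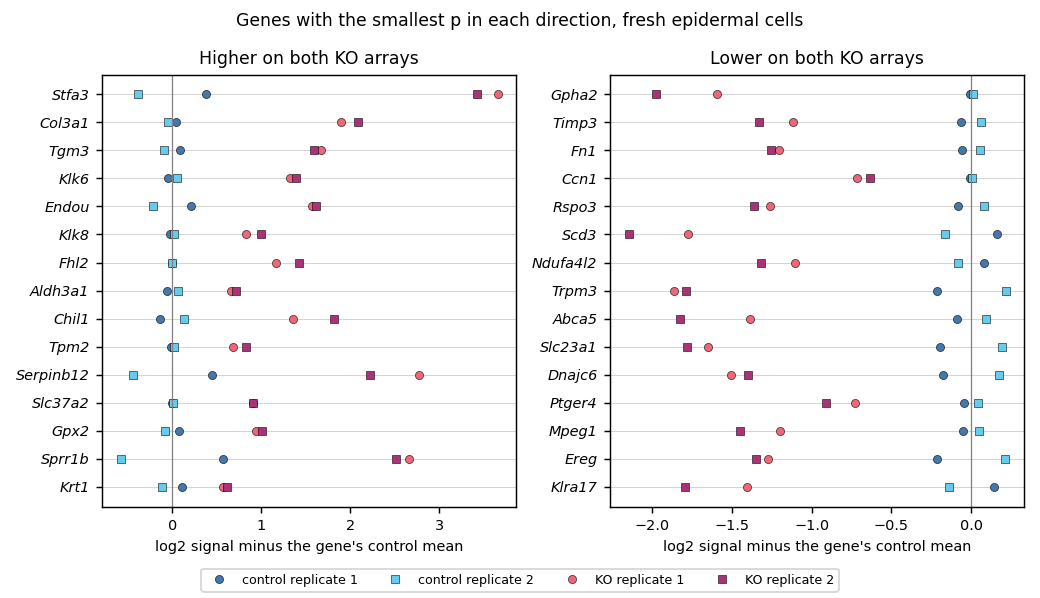
Log2 signal minus the mean of the gene's 2 controls (horizontal axis) for the 15 genes with the smallest unadjusted p in each direction among genes whose groups were apart, 1 point per array. The KO points of a gene lie close together and away from 0, which the choice by smallest p favours. Stfa3 is farthest right at a mean of 3.54, and none of the 30 passed the adjusted threshold.

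Some genes were apart by a wide margin on every array. The lowest KO array exceeded the highest control by 2-fold or more for 17 genes (0.149%), and the highest KO array was below the lowest control by as much for 22 (0.193%). This list was drawn after the values were seen. For 6 of the 17 both controls lay below their array medians, and for 6 of the 22 both KO arrays did, so these 12 passed the filter only through the group in which they were high. They are Col3a1, Acsm1, Klk13, Serpinb3a, Chil1 and Basp1 on the higher side and Trpm3, Slc23a1, Klra17, Ear3, Lama1 and Mpeg1 on the lower, and their fold changes rest on values at background. Among the 17 were Stfa3, Sprr1b, Serpinb12, Serpinb3a, Tgm3, Klk6, Klk13 and Endou, all known from differentiating or stressed epithelia, and also Tnc, Col3a1, Fscn1, Basp1, Fhl2, Chil1, Acsm1, Pinlyp and Gm19950. Fscn1, which encodes the actin bundler fascin, read 255 and 223 on the control arrays and 664 and 1161 on the KO arrays (log2 1.88, SE 0.28). Tnc, the wound matrix protein tenascin C, read 139.7 and 101 in controls and 280.1 and 302 in KO. Among the 22 were Ereg and Btc, which encode EGF receptor ligands, Igfbp3, Fn1, Timp3, Lama1, Rspo3, Gpha2, Pyy, Arg1, Scd3, Lce1m and Abca5. Arg1, the arginase of the urea cycle, read 266 and 609.6 on the control arrays and 78.5 and 83.8 on the KO arrays. Btc (betacellulin) read 191 and 355 on the control arrays and 74.97 and 61.4 on the KO arrays (log2 -1.94, SE 0.31). Igfbp3, an IGF-binding protein, read 2929 and 4796 in controls and 1069 and 1337 in KO. The controls of these 3 genes differed between themselves by more than the KO arrays did. No KO value reached the lower control, as the 2-fold margin that picked them requires. The remaining genes lower on both arrays were Trpm3, Slc23a1, Slc1a1, Dnajc6 and Ndufa4l2 together with 4 genes known from myeloid cells, Ear3, Ifitm6, Klra17 and Mpeg1.

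Nearly all genes of the G2 and mitotic phases read higher on both KO arrays. All 51 tested members were higher in KO, 49 were apart (27.1% over all genes) and 44 had an unadjusted p under 0.05 (7.38% over all genes), with none past the adjusted threshold. The median change was 0.64, against 0.01 over all genes. Cdca8 (borealin), a subunit of the chromosomal passenger complex, read 1113 and 941 on the control arrays and 1740.3 and 1768 on the KO arrays (log2 0.78, SE 0.11, adjusted p = 0.242). Mad2l1, a spindle checkpoint protein, read 407 and 373 on the control arrays and 652 and 699 on the KO arrays (log2 0.79, SE 0.12). Ncapg, a condensin subunit, read 86.3 and 66.2 in controls and 145 and 182 in KO (log2 1.10, SE 0.20). In each of the 3, both KO arrays exceeded both controls, and the controls differed from each other by less than either did from KO. Plk1, the polo kinase, read 179.5 and 155 in controls and 286 and 331 in KO, and Cenpa, the centromeric histone, 535 and 458 in controls and 809 and 912 in KO. Mki67, which encodes the proliferation antigen Ki-67 and was named after its values were seen, read 1655 and 1108 in controls and 2132 and 2773 in KO (log2 0.84, SE 0.23). At the other end of the list, and named likewise, Ttk (a checkpoint kinase) overlapped between the groups at 620.1 and 533 on controls and 706 and 536 on KO arrays.

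The mitotic shift was of like size on both KO arrays. KO replicate 1, the array with hair shaft genes below both controls, was above both controls for all 51 members (40.1% over all genes), with a median of 0.62. KO replicate 2 was above both for 49, with a median of 0.69. The controls were not level either: control replicate 2 was below control replicate 1 for 47 of the 51, by a median of 0.28 on the log2 scale. The median of the list was 0.47 to 0.79 when any single array was left out. Of 13 hair matrix genes, which mark the dividing cells of the hair bulb, 4 were apart and higher (27.1% over all genes). Their sums were 6213 and 6425 on controls, 5729 on KO replicate 1 and 8884 on KO replicate 2. The part of hair bulb cells in the mitotic values was not tested.

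**Figure D3:**
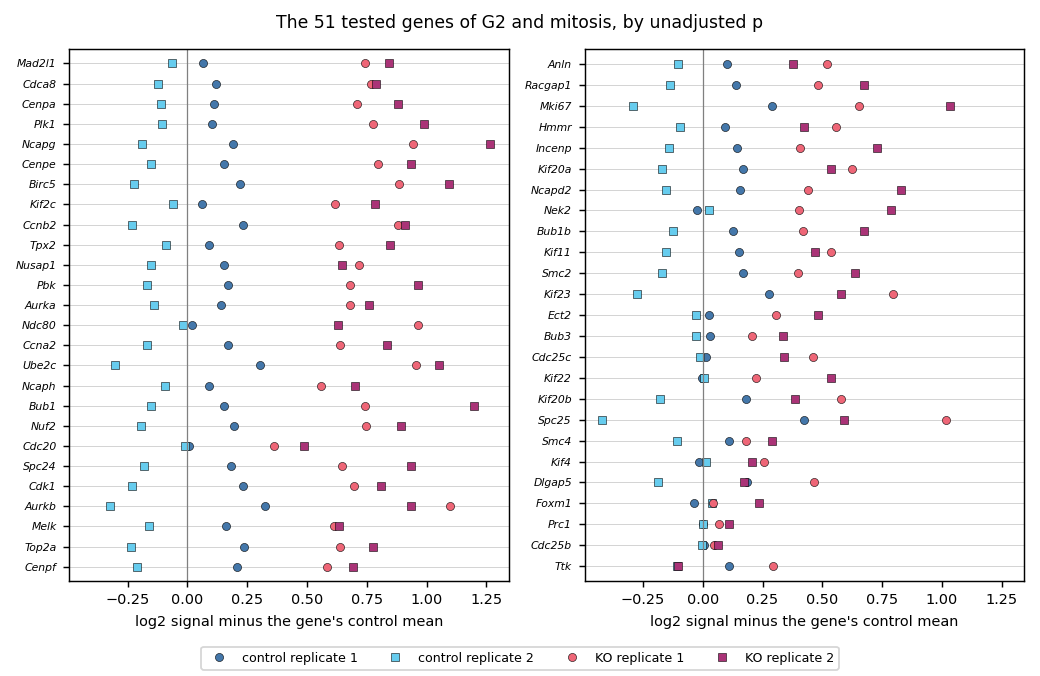
Log2 signal minus the mean of the gene's 2 controls for the 51 tested genes of G2 and mitosis, ordered by unadjusted p from top left to bottom right, 1 point per array. Both KO arrays lie right of both controls for 49 genes, and control replicate 2 is left of control replicate 1 for 47.

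Genes of DNA replication and S phase were shifted less. All 41 tested members were on the higher side, 28 of them apart (27.1% over all genes). An unadjusted p under 0.05 was found for 9 (7.38% over all genes), and the median was 0.24. Tk1, the thymidine kinase of S phase, read 343 and 271 on the control arrays and 503 and 562 on the KO arrays (log2 0.80, SE 0.16, adjusted p = 0.274). Gins1, a subunit of the replicative helicase, read 264 and 202 in controls and 333 and 361 in KO, and Rrm2, of ribonucleotide reductase, 1473 and 1365 in controls and 1716 and 2223 in KO. KO replicate 1 was above both controls for 31 of the 41 and below both for 2. Control replicate 2 was below control replicate 1 for 34 of them. Among 19 cell cycle brakes and G1 cyclins, 3 were apart and higher (15.8%, against 27.1% over all genes). On the lower side 5 were apart (26.3%, against 25.2% over all genes). Among 27 p53 targets, 10 were apart and higher and 4 lower. Pmaip1, which encodes the BH3-only protein NOXA, read 1836 and 1625 in controls and 2695 and 2639 in KO (log2 0.63, SE 0.10), while Btg2 was on the other side at 18467 and 16379.9 against 12695 and 13099.5.

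The promoters of 3 leading mitotic genes are shown because genes of G2 and mitosis are commonly switched on through CCAAT boxes bound by NF-Y close to the start. Each sequence is the 250 bases before the start of the gene, from RefSeq (GRCm38.p6), 5′ to 3′ on the strand of the gene, with CCAAT or its reverse complement ATTGG in capitals. Plk1 lies at chr7:122159185-122159434 on the plus strand, Cdca8 at chr4:124936918-124937167 on the minus strand and Cenpa at chr5:30666636-30666885 on the plus strand.
Plk1: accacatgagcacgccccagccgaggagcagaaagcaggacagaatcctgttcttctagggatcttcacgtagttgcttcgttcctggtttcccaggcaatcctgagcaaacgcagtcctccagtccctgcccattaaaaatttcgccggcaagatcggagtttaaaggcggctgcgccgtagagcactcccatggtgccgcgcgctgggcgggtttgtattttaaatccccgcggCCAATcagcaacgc
Cdca8: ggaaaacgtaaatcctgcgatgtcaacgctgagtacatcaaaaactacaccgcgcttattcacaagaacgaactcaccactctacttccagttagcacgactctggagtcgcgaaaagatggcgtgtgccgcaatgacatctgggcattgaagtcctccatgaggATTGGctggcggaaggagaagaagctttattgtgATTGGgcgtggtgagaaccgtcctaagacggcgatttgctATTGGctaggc
Cenpa: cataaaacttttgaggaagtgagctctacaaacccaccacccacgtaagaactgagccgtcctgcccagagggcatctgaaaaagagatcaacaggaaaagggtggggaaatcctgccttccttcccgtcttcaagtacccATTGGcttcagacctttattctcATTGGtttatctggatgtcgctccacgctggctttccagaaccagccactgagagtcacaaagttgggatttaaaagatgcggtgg
The window of Plk1 held 1 such box, that of Cdca8 held 3 and that of Cenpa held 2. Of 9216 tested genes with a promoter in the table, 3691 (40.0%) held at least 1 in the same window. Only 40 of the 51 mitotic genes had a sequence, fewer than 80%, so the share over the list is void and is not given. TTTGAA, the CHR element, was searched on both strands of the same windows of Plk1, Cdca8 and Cenpa and was found in none. Over the 9216 tested genes with a promoter, 1157 (12.6%) held it, so its absence from 3 windows tells nothing about the mitotic list. A match of letters is a description and does not show a bound site.

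Target genes of YAP were mostly on the lower side. Of 27 tested, 19 were apart and lower (25.2% over all genes), 4 apart and higher, and 17 had an unadjusted p under 0.05 on the lower side (7.9% over all genes), with a median of -0.35. Ccn1 (Cyr61), a matricellular target shared with SRF, read 7612 and 7692 on the control arrays and 4657 and 4926 on the KO arrays (log2 -0.68, SE 0.066, adjusted p = 0.153), and all 4 of its probe sets had the same sign. Ccn2 (connective tissue growth factor) read 3211 and 3331 on the control arrays and 1722 and 2260.0 on the KO arrays (log2 -0.73, SE 0.14). Ptpn14, a phosphatase that restrains YAP, read 2824 and 3426 in controls and 2061 and 1990.3 in KO. Each of the 3 was lower on both KO arrays. The member on the higher side with the smallest p was Birc5 (survivin) at 458 and 337 in controls and 725 and 839 in KO, which is also in the mitotic list. KO replicate 1 alone was below both controls for 19 of the 27 (37% over all genes).

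SRF and MRTF targets and the immediate early genes overlapped with these and leaned the same way. Of 37 SRF targets, 21 were apart and lower (25.2% over all genes) and 6 higher (27.1%), with a median of -0.09. Srf itself read 2029.8 and 1989 on the control arrays and 1352 and 1454 on the KO arrays (log2 -0.52, SE 0.089, adjusted p = 0.25), whereas Fhl2 was among the 6 on the higher side. Of 39 immediate early genes, which answer many stimuli within a short time, 23 were apart and lower and 2 higher. An unadjusted p under 0.05 on the lower side was found for 20 (7.9% over all genes), and the median was -0.26. Atf3, a stress-induced transcription factor, read 15973 and 16067 on the control arrays and 12789 and 12677 on the KO arrays (log2 -0.33, SE 0.049). Maff, a small MAF-family protein, read 1950.5 and 2034 on the control arrays and 1206 and 988 on the KO arrays (log2 -0.87, SE 0.12). Ppp1r15a (GADD34) read 6286 and 6451 in controls and 4490.4 and 4034 in KO and Fosl1, an AP-1 subunit, 2139 and 2208 in controls and 1549 and 1392 in KO. These 4 were lower on both KO arrays. They were picked by smallest p within the list, which favours close replicates. Of 31 heat shock proteins and chaperones, 14 were apart and lower, 13 had an unadjusted p under 0.05 on that side, and the median was -0.12. Dnajb1, an HSP40 cochaperone, read 17151 and 17605 in controls and 13367 and 12164 in KO, and Cryab, a small heat shock protein, 435 and 863 in controls and 218 and 189 in KO.

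The promoters of Ccn1 and Srf show how their letters differ in this window. The 250 bases before each start are from RefSeq (GRCm38.p6), with Ccn1 at chr3:145649986-145650235 and Srf at chr17:46556163-46556412, both on the minus strand. Capitals mark the TEAD motif CATTCC, through which YAP acts, in Ccn1 and the CArG box, bound by SRF, in Srf.
Ccn1: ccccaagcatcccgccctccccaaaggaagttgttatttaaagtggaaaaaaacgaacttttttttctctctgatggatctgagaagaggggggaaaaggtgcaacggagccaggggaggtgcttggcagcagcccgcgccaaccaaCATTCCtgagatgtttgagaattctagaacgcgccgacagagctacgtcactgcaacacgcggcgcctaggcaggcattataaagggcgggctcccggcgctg
Srf: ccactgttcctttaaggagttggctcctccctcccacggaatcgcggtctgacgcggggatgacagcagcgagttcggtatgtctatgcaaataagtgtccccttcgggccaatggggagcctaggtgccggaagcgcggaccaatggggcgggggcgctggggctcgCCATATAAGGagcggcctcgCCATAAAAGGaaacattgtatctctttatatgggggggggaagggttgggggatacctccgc
Ccn1 held 1 CATTCC and no CArG box in this window, and Srf held 2 CArG boxes and no CATTCC. Both motifs were searched on both strands, and they share no letters in these sequences. CATTCC was present in 1150 of 9216 promoters (12.5%) and a CArG box in 125 (1.36%). A sequence was at hand for 31 of the 37 SRF targets, of which 8 (25.8%) held a CArG box, and for 32 of the 39 immediate early genes, of which 3 (9.38%) did. The SRF list was chosen from known targets, so its share is no independent result. Only 20 of the 27 YAP targets had a sequence, so their share is void.

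Differentiation genes lay on both sides. Of 36 tested suprabasal and envelope genes, 17 were apart and higher (27.1% over all genes) and 10 apart and lower (25.2%). Klk13 among them passed the filter only through its KO arrays, since both controls lay below the array median. In the list, an unadjusted p under 0.05 was found for 15 on the higher side (7.38% over all genes) and 4 on the lower (7.9%). The median was 0.03 over all 4 arrays, -0.010 without KO replicate 1 and 0.13 without KO replicate 2, so its sign rests on single arrays. Beside Tgm3, Klk6, Klk8, Serpinb12 and Krt1, the higher members included Flg (profilaggrin) at 598 and 755 in controls and 969 and 1023 in KO and Casp14, the caspase of the cornified layer, at 497 and 495 in controls and 760.2 and 841 in KO. Ivl, which encodes the envelope protein involucrin, read 2376 and 2177 in controls and 3024 and 2682 in KO. All 3 were higher on both KO arrays on these probe sets, and another probe set of Casp14 had the opposite sign. The lower members included Lor (loricrin), the bulk protein of the envelope, at 14184 and 18624 on the control arrays and 11033 and 4869 on the KO arrays, and Crct1, a cysteine-rich late envelope gene, at 3876 and 6424 on the control arrays and 2067 and 1391 on the KO arrays. These 2 genes were lowest on KO replicate 2, and their controls also differed from each other. These and other genes beyond the 5 of smallest p were named after their values were seen.

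The 3 small families of the cornified envelope differed among themselves. All 11 tested Lce genes, late envelope proteins, were on the lower side and 4 were apart (25.2% over all genes), with a median of -0.31. Lce1m read 1111 and 2379 on the control arrays and 444 and 209.8 on the KO arrays (log2 -2.41, SE 0.48), and Lce1a2 read 758 and 1609 in controls and 531 and 274 in KO. The controls were far from level: control replicate 2 exceeded control replicate 1 for all 11, by a median of 0.95, and the medians were -0.17 on KO replicate 1 and -0.90 on KO replicate 2. The spread within each group was thus larger than the median difference between them, and without control replicate 2 the list median was 0.055. Of 5 tested Sprr genes, early and stress-induced envelope proteins, 4 were apart and higher (27.1% over all genes) and 1 lower. Sprr2h, at 62.0 and 62.7 in controls and 110 and 100.2 in KO, had both controls below the array median. It passed the filter only through its KO arrays. Sprr2d was apart by little, at 52.25 and 77.64 in controls and 120.55 and 79.84 in KO. Sprr1b read 214 and 96.3 on the control arrays and 908 and 819 on the KO arrays (log2 2.59, SE 0.37), and Sprr1a read 3648 and 3088 in controls and 4698 and 4728 in KO. Of 5 stefins and cystatins, 3 were apart and higher. Beside Stfa3 these were Cst6 (cystatin M/E), which controls cathepsins in the cornified layer, at 12621 and 11838 in controls and 17381 and 15980.3 in KO, and Cstb at 12199 and 12469 in controls and 13563 and 14492 in KO. Csta1 overlapped between the groups at 679 and 1100.5 on controls and 877 and 844 on KO arrays.

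**Figure D4:**
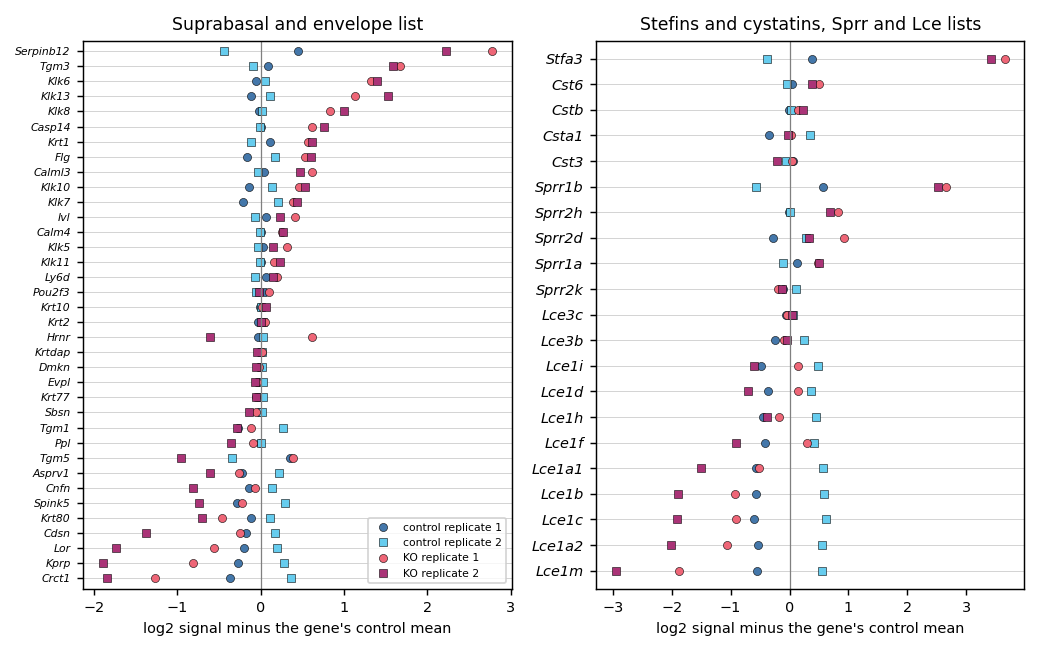
Log2 signal minus the mean of the gene's 2 controls for the 36 tested suprabasal and envelope genes (left) and for stefins and cystatins, Sprr and Lce genes (right), 1 point per array, each list ordered by its mean change. Genes at the top have both KO arrays right of both controls, while at the bottom the KO replicate 2 points lie farthest left and the 2 controls are separated from each other.

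Basal keratinocyte genes were split. Of 25 tested, 9 were apart and higher (27.1% over all genes) and 12 lower (25.2%), with a median of -0.09. Krt15, a keratin of basal and bulge cells, read 20049.6 and 20241 in controls and 17211 and 17436 in KO (log2 -0.22, SE 0.046), while Krt14 read 24783 and 23469.9 in controls and 27346 and 26755 in KO, both with small changes and tight replicates. Cd44, the hyaluronan receptor, read 4498 and 3296 in controls and 5647 and 5809 in KO, and Dst, whose epithelial product anchors keratin at hemidesmosomes, read 7426 and 8271 in controls and 6272 and 6355 in KO. Of 19 bulge and isthmus genes, 12 were apart and lower and 4 higher. Plet1 read 4824 and 5998 in controls and 3617 and 3425 in KO, Lhx2, a transcription factor of follicle stem cells, read 802 and 846 in controls and 643 and 656 in KO, and Krt79, a keratin of the gland duct and infundibulum, lay on the other side at 13160.3 and 11462 against 16209 and 17013.

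Adherens, tight and gap junction genes leaned to the lower side, while the counts for desmosome and focal adhesion genes were near the share over all genes (25.2% apart and lower). Of the 27 tested, 14 were apart and lower and 4 higher, with a median of -0.16. Gjb6 among them passed the filter only through its KO arrays, since both controls lay below the array median. Cgn (cingulin), a tight junction protein that binds the RhoA exchange factor GEF-H1, read 784 and 989 on the control arrays and 529 and 369 on the KO arrays (log2 -0.99, SE 0.21, adjusted p = 0.28). Marveld2 (tricellulin) read 690.4 and 771 in controls and 535 and 479 in KO and Cldn1 (claudin 1) 4774 and 5369 in controls and 3982 and 3935 in KO. All 3 were lower on both KO arrays. Nectin1 had probe sets of opposite sign and no direction is given for it. Of 11 desmosome genes, 2 were apart and higher and 3 lower. The desmosomal cadherins Dsg2 and Dsc2 were on the lower side, Dsg2 at 4661 and 5552 in controls and 3917 and 3525 in KO and Dsc2 at 968 and 1151 in controls and 812 and 743 in KO, while the plaque protein Pkp1 read 10981 and 10547 in controls and 11256 and 11190.2 in KO. Of 19 focal adhesion genes, 4 were apart and higher and 6 lower, and Tns3 (tensin 3) read 1097 and 1270.3 in controls and 829 and 834 in KO.

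Matrix and growth factor genes held some of the largest differences. Of 43 TGF-beta and matrix genes, 21 were apart and lower (25.2% over all genes) and 8 higher (27.1%). In that list, 14 had an unadjusted p under 0.05 on the lower side and 5 on the higher, and the median was -0.16. Beside Timp3 and Fn1, Tgfbi, a TGF-beta-induced matrix protein, read 9985 and 10900.4 in controls and 8043 and 7553 in KO, and Thbs1 (thrombospondin 1) read 3874 and 3475 in controls and 2078 and 2748 in KO. The list was not uniform, since Tnc was on the higher side. Of 12 genes of the EGF receptor family and its ligands, 7 were apart and lower and none higher. Errfi1 (MIG6), a feedback inhibitor of the receptor, read 4138 and 4200.0 in controls and 3136 and 3506 in KO, and Erbb3 read 3945 and 3963 in controls and 3691 and 3278 in KO. Egfr had probe sets of opposite sign. Of 37 Wnt pathway genes, 14 were apart and lower and 4 higher with a median of 0.01, and Rspo3 was the member with the smallest p.

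Cytokine and defence genes gave no common direction. Of 23 cytokines and chemokines, 6 were apart and higher (27.1% over all genes) and 5 lower (25.2%). Cxcl12, a chemokine for CXCR4-bearing cells, read 721 and 842 on the control arrays and 411 and 428 on the KO arrays (log2 -0.89, SE 0.13, adjusted p = 0.242), and Icam1, a leukocyte adhesion receptor, 1799 and 2008 in controls and 1262 and 1023 in KO. Both were lower on both KO arrays. Of 25 stress keratins, alarmins and wound genes, 10 were apart and higher and 6 lower, and Defb1, a beta-defensin, was among the lower at 1849.7 and 2645 against 1335 and 1076. Gjb6 and S100a8 of this list passed the filter only through their KO arrays, since both controls lay below the array median. Of 23 interferon response genes, 9 were apart and lower and 1 higher, but KO replicate 1 had a median of -0.02 and KO replicate 2 of -0.28. Of 24 NRF2 targets, 10 were apart and higher and 6 lower. Nqo1, a quinone reductase, read 139 and 122 in controls and 186 and 183 in KO, and Mgst2, a microsomal glutathione transferase, 846 and 735 in controls and 1233 and 1183 in KO.

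Among metabolic genes, subunits of the respiratory chain were mostly on the higher side, by a small amount. Of 36 tested, 32 were apart and higher (27.1% over all genes) and 1 lower (25.2%). In the list, 18 had an unadjusted p under 0.05, and the median was 0.20. Ndufa1, a subunit of complex I, read 8178 and 7827 on the control arrays and 9617 and 9756 on the KO arrays (log2 0.28, SE 0.059, adjusted p = 0.276). Cox5b, of cytochrome c oxidase, read 9761 and 9470.3 on the control arrays and 11207 and 11382 on the KO arrays (log2 0.23, SE 0.055). KO replicate 1 was above both controls for 33 of the 36, and so was KO replicate 2. Cytosolic ribosomal protein genes had a median of 0.01 over 29 members, with 9 apart and higher and 2 lower. Of 30 genes of glycolysis and hypoxia, 15 were apart and lower and 6 higher. Ndrg1, a hypoxia-induced gene, read 3214 and 4429.7 on the control arrays and 1803 and 1452 on the KO arrays (log2 -1.22, SE 0.19), Aldoc, an aldolase, read 608 and 814 in controls and 319 and 378 in KO, and Bnip3, a mitophagy receptor, 1573 and 1566 in controls and 1040.2 and 599 in KO. Of 21 cholesterol synthesis genes, 14 were apart and lower and 2 higher, and Msmo1, a sterol methyl oxidase, read 2716 and 2905 in controls and 2179 and 1886 in KO. Of 36 epidermal barrier lipid genes, 8 were apart and higher and 12 lower. Degs2 among them passed the filter only through its KO arrays, since both controls lay below the array median. Alox12e, an epidermal lipoxygenase, read 9415 and 10065 in controls and 7927 and 6923 in KO, and Scd1 8802 and 8475 in controls and 7199 and 7174 in KO. Of 25 glucocorticoid and clock genes, 12 were apart and lower and 3 higher. Bhlhe40, a clock repressor, read 5007 and 4928 in controls and 3416 and 3644 in KO, while Fkbp5, which encodes a cochaperone of the glucocorticoid receptor, was higher at 503 and 445 than its controls at 323 and 338.

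**Figure D5:**
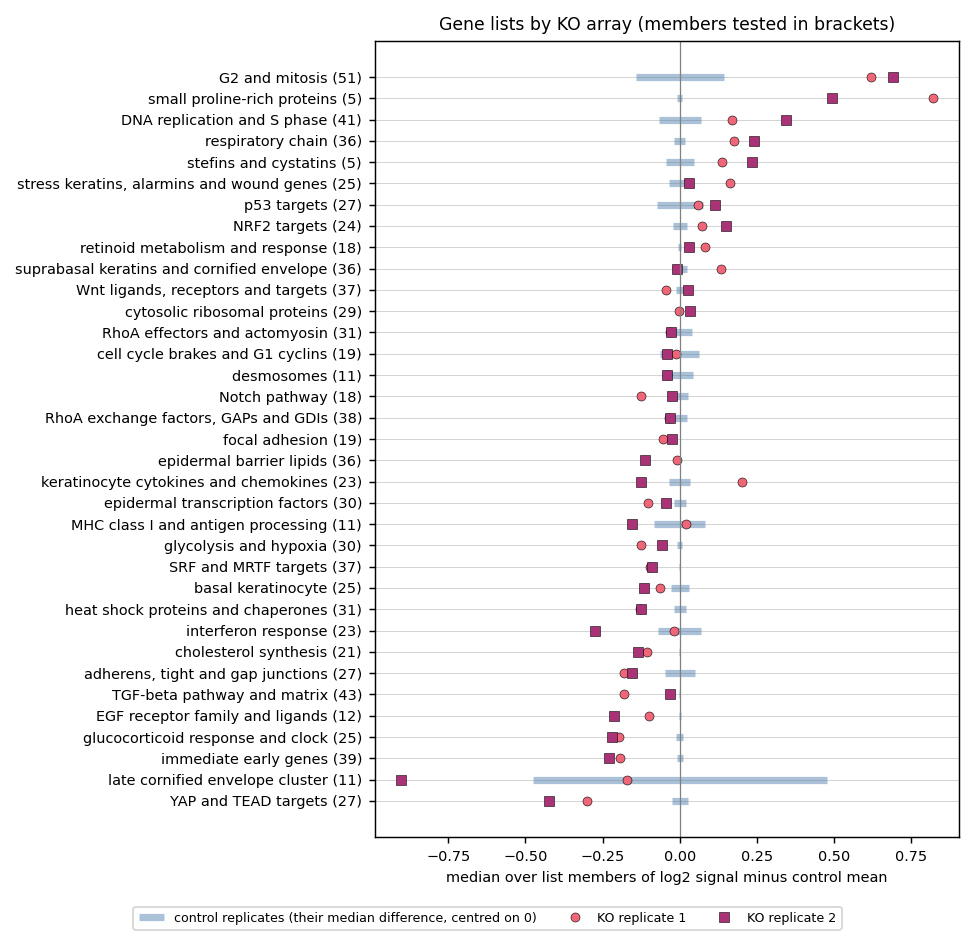
Median over the tested members of each list shown, of log2 signal minus the control mean (horizontal axis), with 1 point for each KO array and a bar for the median difference between the 2 controls, centred on 0. G2 and mitosis lie at 0.62 and 0.69, YAP and TEAD targets at -0.30 and -0.42, and the bar of the late cornified envelope cluster is the widest.

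The fresh effect was set against that in primary culture, where 3 KO and 3 control arrays were measured. Those arrays are on another scale and were fitted apart, so only the difference of the log2 changes was tested (limma fits combined, Benjamini-Hochberg over 18773 probe sets). It passed an adjusted p of 0.05 for 108 of 9745 genes compared (1.11%). Of the 51 mitotic genes, 17 passed: their list had a median of 0.64 in fresh cells and -0.27 in culture. Mad2l1 had a change of 0.79 (SE 0.12) in fresh cells and -0.23 (SE 0.092) in culture (difference 1.02, adjusted p = 0.02). Of 41 S phase genes none passed, although 41 were on the higher side in fresh cells and 40 on the lower side in culture. Fhl2 was higher in fresh cells, at 1.30 (SE 0.15), and about level in culture, at -0.12 (SE 0.14, adjusted p of the difference = 0.018). For Ccn1 the changes were -0.68 and -1.03, and the difference did not pass (adjusted p = 0.64). The suprabasal list had medians of -0.0039 and 0.91 over the 28 members compared, of which 2 passed.

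Limits of 2 arrays per group apply to every value above. With KO replicate 2 left out, the log2 change was 3.66 for Stfa3, -1.59 for Gpha2, -1.39 for Abca5, -1.42 for Ifitm6 and -2.68 for Slc15a2. These 5 genes were chosen after that fit was seen. Leaving out KO replicate 1 leaves the array rich in hair transcripts alone in its group. Slc15a2 read 49.04 and 745 on the KO arrays and 287 and 345 on the controls, so its 2 KO values lie on opposite sides.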

How the data were processed

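RNA was hybridised to Affymetrix whole-genome mouse arrays, per the labels' protocols. The authors deposited 1 linear intensity per probe set and array. MAS5, which summarises probe brightness per probe set, is named in the submitters' processing notes, with no settings. Fresh and cultured intensities differ in scale and were not set side by side.

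Intensities were turned into log2 values without further normalization and filtered as stated above. The 4 fresh arrays were fitted with limma 3.58.1 in R 4.3.3 (lmFit, eBayes with trend, two-sided, Benjamini-Hochberg), which was tested on simulated data. Total depth does not apply to arrays: their number limits the precision, and an exact permutation test of 2 against 2 cannot go below 0.333. Probe sets were named from the platform annotation, and those with several symbols were not named. Promoters were matched by symbol for 9216 of 11376 genes. Named genes were Rhoa, the 15 lowest p-values on either side among those apart, and up to 5 per list by p. Members and lists were chosen with earlier results of these data known. Alternatives covered the filter, scaling, offset, trend, array weights, block, 10-array fit, probe set choice and each array left out. All 6 cultured arrays were fitted alike. The result of 1 gene list is not reported here.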

Additional observations from a re-analysis of the deposited data

Results flagged for a closer look

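Of 131 genes named above, 14 differed between fresh and cultured cells in the effect of RhoA loss by the test of that difference (limma fits of the 2 sets combined, adjusted p under 0.05). The value for each gene is the log2 change in fresh cells minus that in culture. Fresh and cultured arrays are on different scales, and values near the floor of the cultured arrays can enlarge a change there.

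Mitotic genes were higher in KO in fresh cells and lower or level in culture. The difference was 1.02 for Mad2l1 (SE 0.15), 1.06 for Cenpa (SE 0.17) and 0.77 for Cdca8 (SE 0.14). Racgap1 differed by 1.10 (SE 0.20), with 0.58 in fresh cells and -0.53 in culture.

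Differentiation genes went the other way. The difference was -6.59 for Lor (SE 0.90), which was -1.15 in fresh cells and 5.44 in culture. It was -2.18 for Csta1 (SE 0.31) and -1.74 for Ivl (SE 0.23). In culture these 2 genes had changes of 2.17 and 2.07, and in fresh cells of -0.0061 and 0.32.

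Among the others, Fkbp5 differed by 1.38 (SE 0.19), with 0.52 in fresh cells and -0.86 in culture. Fhl2 differed by 1.42 (SE 0.21) and Tpm2 by 0.85 (SE 0.14). Scd3 differed by -1.71 (SE 0.24), Dst by -0.66 (SE 0.13) and Dnajb1 by -0.48 (SE 0.095). Trpm3 differed by -1.78 (SE 0.20), but its fresh KO values of 31.6 and 33.3 lie below the array median, so the size of that change rests on values at background. Groups of 2 or 3 arrays are too small for the test of single outlying samples.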

How the results depend on the processing

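No probe set was called under any filter, offset, scaling, trend or array weight tried on the 4 fresh arrays (12.9% had an unadjusted p under 0.05), nor at an adjusted p of 0.1 except without the filter, where 3 were. A fit over all 10 arrays, which borrows the spread of the cultured arrays, called 447 probe sets (174 higher, 273 lower). By the 1 probe set that represents each gene, 232 of 11376 genes (2.04%) were called, 17 of them among the 51 mitotic genes. Leaving out 1 array gave 0 to 1003 calls, and a lone array is then assumed to vary like the other group. The number of probe sets apart was 9601 higher and 8653 lower without the filter, and 7363 to 8940 higher and 7969 to 9206 lower with 1 array left out. With 1 array left out, the list medians ranged from -0.42 to -0.30 for YAP targets, 0.47 to 0.79 for mitosis, 0.16 to 0.35 for S phase, -0.010 to 0.13 for the suprabasal list, -0.25 to -0.19 for immediate early genes, 0.17 to 0.24 for the respiratory chain and -1.27 to -0.28 for Langerhans genes. The immediate early median was -0.22 over all probe sets of a gene.

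Of 131 genes named above, 5 turned in sign. Csta1 was -0.0061 and became 0.000569 with the 75th percentile as centre and 0.00667 after quantile normalization. With 1 array left out, Csta1 ranged from -0.35 to 0.34, Cd3e from -0.090 to 0.17, Krt35 from -0.72 to 6.56, Slc15a2 from -2.68 to 1.24 and Ttk from -0.10 to 0.30. In the fit over all 10 arrays, none of the 131 turned in sign and 40 passed.

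With the replicate number as a block (replicate block), 0 probe sets were called, the mitotic median was 0.64, and 2758 had an unadjusted p under 0.05. Same-numbered arrays did not deviate together (correlation -0.055). With 2 arrays per group this cannot tell whether the number pairs them. The main fit had no call that the block could have removed. On simulated arrays of independent noise with 200 of 22893 probe sets changed, 29% of 2-fold and 92% of 4-fold changes were recovered. There were 3 false calls, and many 2-fold changes were missed even there. Those shares depend on the simulated setting and do not carry over to the real arrays. Here Stfa3, with a mean change of 11.6-fold, did not pass (limma adjusted p = 0.153).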

Other observations

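Both KO arrays shared a few values that belong to none of the lists. Pyy, which encodes peptide YY, read 1457 and 2642 on the control arrays and 558 and 162 on the KO arrays, and Ifitm6 read 7165 and 8659.5 on the control arrays and 2935 and 1300.4 on the KO arrays. Both KO arrays were below both controls for each of them, with KO replicate 2 lowest. Basp1, a membrane protein of cell protrusions, read 64.5 and 55.4 on the control arrays and 145 and 337 on the KO arrays, and Slc1a1, a glutamate transporter, read 223 and 308 on the control arrays and 97.99 and 62.96 on the KO arrays. These were chosen after their values were seen.

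The lists not described above are set beside shares over all genes of 27.1% apart and higher and 25.2% apart and lower. Of 18 Notch pathway genes, 3 were apart and higher and 7 lower, and of 18 retinoid genes, 5 and 2. Of 30 epidermal transcription factors, 5 were apart and higher and 10 lower, and of 11 MHC class I and antigen processing genes, none and 1. Among markers of other cells, sebaceous genes counted 2 higher and 4 lower of 9. Merkel cell genes counted 2 higher of 3 and endothelial genes 1 lower of 3. That endothelial gene, Flt1, passed the filter only through its controls, since both KO arrays lay below the array median. None of the 5 muscle, fat and blood genes was apart.

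The filter was set at the array median, between 64.1 and 64.8 on the 4 arrays. There, 810 probe sets exceeded the median on exactly 2 arrays, with a median mean signal of 65.2, and 1180 on exactly 1 array, with a median of 59.3, were left out. The third Rhoa probe set was among those not tested, at 70.6 and 39.3 on controls and 58.1 and 41.3 on KO arrays.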
